A study of Mus musculus with 2 samples.

Results

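The genes described here are 10 that encode non-collagen proteins of the extracellular matrix: Fbn1, Eln, Dcn, Bgn, Lum, Sparc, Tgfbi, Postn, Fn1 and Spp1. The 10 were listed with earlier results of these data known. They were chosen by gene symbol, and 11 array probes matched them through their transcript accessions, 2 for Sparc and 1 for each of the other genes. In all, 20886 genes had a matched probe on the adipose array and 20884 on the liver array. In each tissue, 9 of the 10 had a probe well above background in both channels, among 14315 such genes on the adipose array and 13642 on the liver array.

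The study compared male wild-type C57BL/6J mice kept for 4 weeks on a high-fat diet with mice kept on a normal diet. The 4 RNA pools were adipose tissue on the high-fat diet, adipose tissue on the normal diet, liver on the high-fat diet and liver on the normal diet. The pools were made from the RNA of 10 livers and 10 fat samples. An Agilent array for each tissue held its high-fat pool in red (Cy5) and its normal-diet pool in green (Cy3). The age of the mice, the fat depot and the number of animals in each pool are not given in the sources used here. With 1 array per tissue, no dye swap and pooled RNA, there is no spread between animals, no p-value is given, and diet, dye and pool cannot be told apart within an array. A gene is called higher or lower when its ratio is at least 2-fold.

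The non-collagen matrix is built from several kinds of protein. Fibrillin microfibrils form a scaffold on which elastin is laid down, and they also hold latent TGF-beta. Small leucine-rich proteoglycans such as decorin, biglycan and lumican bind collagen fibrils and limit their thickness. Matricellular and adhesive glycoproteins, such as SPARC, periostin, osteopontin and fibronectin, link cells to that network through integrins or tune its assembly. In fat the main producers are fibroblast-like stromal cells and preadipocytes, and in liver they are stellate cells and portal fibroblasts, while hepatocytes secrete plasma fibronectin.

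The tissue labels were checked against markers. The 12 adipocyte markers were all above background on the adipose array, with summed channel levels of 894975 (high fat) and 1036760 (normal diet), against 18102 and 17354 on the liver array, where Plin1 and Lep were not well above background. The 14 hepatocyte markers summed to 131190 and 309006 on the adipose array, and to 1770540 and 1233410 on the liver array. The adipose sums include Pck1 and Cyp2e1, the brightest of that list there. Their log2 levels in the high-fat and normal-diet pools were 16.15 and 16.52 for Pck1 and 15.59 and 16.52 for Cyp2e1. Neither passed 2-fold, at ratios of -0.37 and -0.93. Markers of other organs were measured on the adipose array too, at unequal levels in its pools. All 12 small intestine markers were at least 2-fold higher in the high-fat fat pool (summed level 706554, against 34352 in the normal-diet pool), 10 of 14 hepatocyte markers were lower by 2-fold or more, and none of either list was below background there.

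In adipose tissue, 3 of the 9 measured genes were at least 2-fold higher in the high-fat pool (Fbn1, Tgfbi and Sparc) and 1 was at least 2-fold lower (Bgn). Among all measured genes of that array, 4.23% passed 2-fold upward and 5.13% downward. The median log2 ratio of the 9 genes was 0.62, against -0.01 for all genes, with 7 ratios above 0 and 2 below. In liver no measured member passed 2-fold in either direction, where 0.491% of all genes were higher and 0.579% lower. The median of the 9 liver ratios was 0.20, against 0.01 for all genes. They lay between -0.06 and 0.26, with 8 of the 9 above 0. Of all measured genes, 52.3% had a ratio above 0 in liver and 49.3% in fat. With local backgrounds as deposited, the median of the 9 liver ratios was 0.01, against -0.004 for all genes. In bulk tissue, fewer cells of a type and less RNA per cell cannot be told apart.

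**Figure D1:**
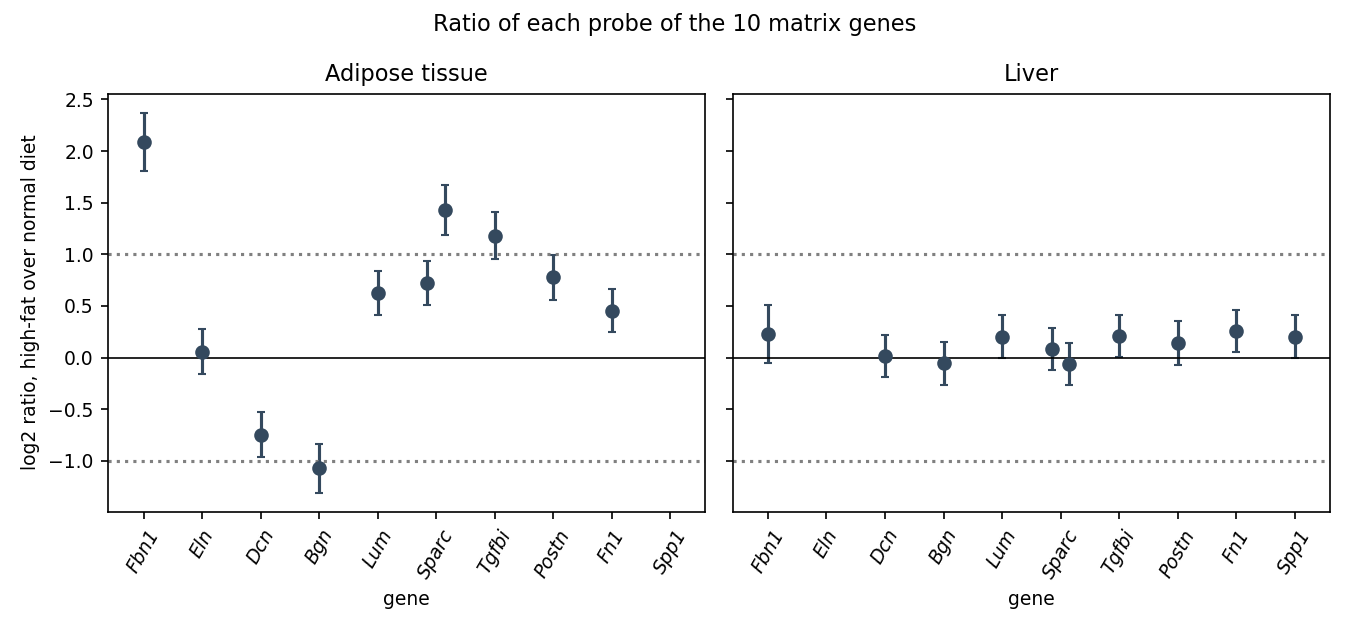
Log2 ratio of the high-fat over the normal-diet pool for each probe of the 10 genes that was well above background in both channels, in adipose tissue (left) and liver (right). Bars show the scanner software's error of the ratio and dotted lines mark 2-fold. Fbn1 stands highest in fat at 2.09 and Bgn lowest at -1.07, while all liver probes lie between -0.06 and 0.26.

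Fbn1 encodes fibrillin-1, the main component of microfibrils, and its C-terminal propeptide is the fasting hormone asprosin. It had the largest ratio of the set. The median spot signal in fat was 12262 in the high-fat pool and 540 in the normal-diet pool, over local backgrounds of 58 and 30. Those raw signals differ 22.7-fold, in a channel pair where the 500 genes of nearest brightness differed by a median of 5.35-fold. After normalization the log2 level was 12.36 on the high-fat diet and 10.27 on the normal diet. The log2 ratio of 2.09 (4.25-fold) had a software error of 0.28, and 199 of the 14315 genes were higher. In liver the signals were 121 and 78 over backgrounds of 54.5 and 31, close to the detection limit, and the ratio was 0.22 with an error of 0.28.

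Eln encodes elastin, the core of elastic fibres. It did not pass 2-fold in fat, at log2 levels of 7.71 in the high-fat pool and 7.65 in the normal-diet pool and a ratio of 0.06 (error 0.22). On the liver array it was not well above background in either channel, with signals of 66 and 63. The other genes of microfibrils and elastic fibres (16 listed, among them Fbn2, the fibulins and the latent TGF-beta binding proteins) had none past 2-fold in either tissue. In fat all 16 were measured, with a median of 0.02 and extremes in Ltbp2 (0.67), Emilin2 (0.60), Fbln1 (-0.60) and Mfap4 (0.58). In liver 15 were measured, with a median of -0.02 and the largest ratios in Fbln2 (-0.49), Ltbp2 (-0.44), Mfap5 (-0.31) and Mfap2 (0.19).

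Tgfbi encodes an adhesion protein with an integrin-binding motif that TGF-beta induces in many cells. Its fat signals were 29198 and 2269, giving log2 levels of 13.72 in the high-fat pool and 12.54 in the normal-diet pool. The ratio was 1.18 (2.27-fold, error 0.23), and 3.33% of all genes were higher. In liver its levels were 11.91 and 11.70, a ratio of 0.21 about equal to its error of 0.21.

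Sparc encodes osteonectin, a collagen-binding matricellular protein that restrains adipocyte differentiation in mouse. Its 2 probes agreed in direction in fat but not in size. The brighter probe had signals of 417341 and 23958.5 and a ratio of 1.43 (error 0.24). The dimmer probe had 111278 and 11028 and a ratio of 0.72 (error 0.21), short of 2-fold. Their mean was 1.07 (2.11-fold), so the call for Sparc rests on the brighter probe. In liver the same probes were at -0.06 and 0.08, within their errors of 0.20 each. Genes with 2 measured probes on the adipose array had a median gap of 0.20 between them, against 0.71 for Sparc.

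The start regions of these 3 genes and of Bgn are shown because they are the members past 2-fold. Each sequence holds the 250 bases before the gene's start on the gene's own strand, from RefSeq on build GRCm38.p6, and 6 of the 10 members have an entry in that table. Capitals mark matches, on either strand, to 5 short motifs. They are TATAAA for the TATA box, the box named CCAAT by its own letters, GGGCGG for the GC box bound by SP1, TGANTCA for AP-1 and CAGAC for the core SMAD motif.
Fbn1 (chr2:125506439-125506688, minus strand): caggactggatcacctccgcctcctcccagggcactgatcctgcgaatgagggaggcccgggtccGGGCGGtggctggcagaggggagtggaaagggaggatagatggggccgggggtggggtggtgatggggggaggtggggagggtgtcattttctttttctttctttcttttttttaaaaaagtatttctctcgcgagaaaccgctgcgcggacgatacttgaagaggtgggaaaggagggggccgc
Tgfbi (chr13:56609336-56609585, plus strand): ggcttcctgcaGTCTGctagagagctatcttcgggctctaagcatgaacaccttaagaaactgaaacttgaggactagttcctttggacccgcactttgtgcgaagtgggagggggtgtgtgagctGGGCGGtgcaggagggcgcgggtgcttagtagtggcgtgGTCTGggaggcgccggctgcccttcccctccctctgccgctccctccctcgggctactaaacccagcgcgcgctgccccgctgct
Sparc (chr11:55420081-55420330, minus strand): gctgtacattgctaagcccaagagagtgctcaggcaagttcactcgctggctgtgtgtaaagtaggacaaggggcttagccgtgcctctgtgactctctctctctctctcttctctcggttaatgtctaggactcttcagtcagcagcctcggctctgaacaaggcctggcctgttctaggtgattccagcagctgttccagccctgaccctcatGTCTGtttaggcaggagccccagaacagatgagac
Bgn (chrX:73483351-73483600, plus strand): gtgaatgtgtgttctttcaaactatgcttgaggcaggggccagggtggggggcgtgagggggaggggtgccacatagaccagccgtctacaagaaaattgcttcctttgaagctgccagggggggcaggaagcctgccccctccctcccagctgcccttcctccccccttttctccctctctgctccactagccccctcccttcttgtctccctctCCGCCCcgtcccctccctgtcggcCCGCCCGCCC
None of the 4 windows holds a TATA box, a CCAAT box or an AP-1 motif by these letters. Those of Tgfbi and Sparc hold a core SMAD motif (2 and 1 matches), which 42.2% of all 32851 windows of that length hold too. Those of Fbn1, Tgfbi and Bgn hold a GC box (1, 1 and 3 matches, the last with 1 overlapping pair), as do 32.7% of all windows. The matches describe these letters only. No motif of the 5 is in all 3 windows of the genes that were higher.

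Postn encodes periostin, a matricellular protein of collagen-rich tissues. Its fat levels were 12.02 in the high-fat pool and 11.24 in the normal-diet pool, with signals of 9526.5 and 1027.5. The ratio of 0.78 (1.71-fold, error 0.22) lay short of the 2-fold call, with 6.08% of all genes higher. In liver its ratio was 0.14 at signals of 232.5 and 142.

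Fn1 encodes fibronectin, which cells assemble into fibrils through integrins. In fat its signals were 90430.5 and 10863 and its ratio 0.45 (1.37-fold, error 0.21). In liver its signals were 109859 and 40612 and its ratio, 0.26 (error 0.20), was the highest of the liver set. The 500 genes nearest to it in brightness on the liver array had a median of 0.15 themselves, and above that running median Fn1 lay at 0.10.

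Spp1 encodes osteopontin, a secreted integrin ligand made by macrophages and by bile duct and kidney epithelium. In fat its signals were 92 and 61, above background in the high-fat channel only, so its ratio there is a bound of at least 1.03-fold higher, computed against the dim channel's own signal. In liver it was measured in both channels, with signals of 563.5 and 285, levels of 8.98 in the high-fat pool and 8.78 in the normal-diet pool and a ratio of 0.20 (error 0.21). The 13 macrophage markers measured in fat included none past 2-fold (median 0.09, summed levels 25597 and 25256). Their ratios lay between -0.21 and 0.84, with 10 above 0 and 3 below.

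The 3 small leucine-rich proteoglycans lay on both sides of 0 in fat. Bgn, which encodes biglycan, had signals of 1021 and 457. The raw signal was thus 2.23-fold higher in the red channel, where genes of that brightness had a median of 4.53-fold, and the log2 levels after normalization were 8.71 in the high-fat pool and 9.79 in the normal-diet pool. The ratio was -1.07 (error 0.23), which is 2.11-fold lower, with 4.67% of all genes lower still. Dcn, which encodes decorin, had levels of 16.69 in the high-fat pool and 17.44 in the normal-diet pool, from signals of 208873 and 53943. Its ratio of -0.75 (error 0.22) was below 0 but short of 2-fold. With the array centred on the median of its spots, dim ones included, Dcn was at 0.54. The measured genes then had a median of 0.69 themselves, and relative to that median Dcn lay at -0.15. Lum, which encodes lumican, had levels of 13.04 and 12.41 and a ratio of 0.62 (error 0.21) in the other direction.

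In liver the same 3 genes had ratios of -0.06 (Bgn), 0.01 (Dcn) and 0.20 (Lum), none larger than its software error. Their log2 levels in the high-fat and normal-diet pools were 8.47 and 8.53 for Bgn, 14.27 and 14.26 for Dcn and 9.80 and 9.59 for Lum.

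**Figure D2:**
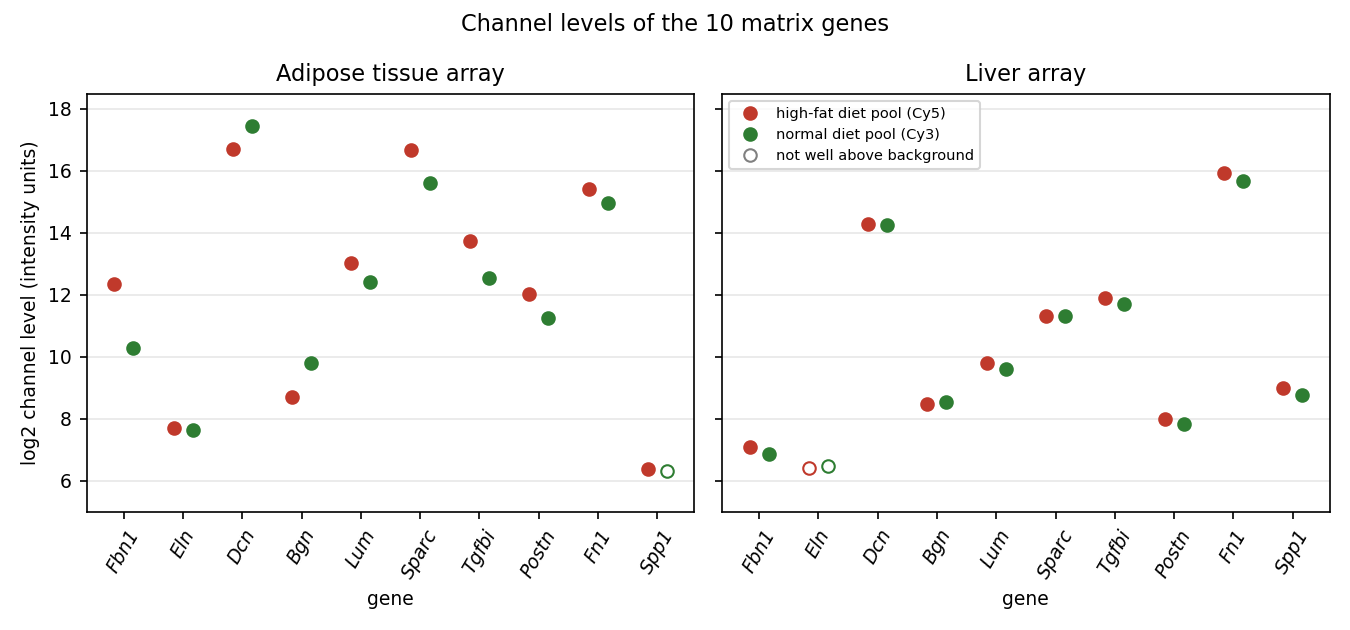
Log2 channel levels of the 10 genes in the high-fat (red) and normal-diet (green) pools, on the adipose array (left) and the liver array (right). Open points were not well above background. Fbn1 differs most between the pools of fat (12.36 and 10.27), and Eln in liver and Spp1 in normal-diet fat lie at the detection limit.

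Other matrix proteoglycans also went both ways in fat. Of 16 listed, 12 were measured there, with 1 past 2-fold upward, Srpx2 (1.15), and 1 downward, Podn (-1.32), a leucine-rich repeat protein called podocan. Aspn (0.93) and Fmod (-0.86), the relatives asporin and fibromodulin, came next, and the median was 0.00 to 2 decimals. In liver 9 were measured with none past 2-fold, a median of 0.06 and the largest ratios in Omd (0.50), Podn (0.38), Srpx2 (0.29) and Hspg2 (-0.21).

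Among 25 other matricellular and adhesive glycoproteins, 22 were measured in fat, with a median of 0.13. Ccn5, a signalling protein of the CCN family, was at least 2-fold higher (1.73). Vtn (-1.84), the plasma adhesion protein vitronectin that hepatocytes make, and Spock2 (-1.29), a SPARC-related proteoglycan, were at least 2-fold lower. Nid2 (0.98) was next. In liver 18 were measured, none past 2-fold, with a median of 0.04. The largest there were Ccn2 (-0.91), also known as CTGF, Nid2 (-0.64), Ccn1 (0.48) and Vtn (0.42).

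Enzymes that crosslink or process the matrix had none past 2-fold. In fat all 10 were measured, with a median of 0.12, led by Pcolce2 (0.66), Loxl1 (0.52), Loxl2 (0.50) and Bmp1 (0.33). In liver 8 were measured, with a median of 0.05 and no ratio beyond 0.19 (Loxl2), followed by Pcolce2 (0.11), Bmp1 (0.08) and Tll1 (0.07).

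Laminins, the networks of basement membranes, held the matrix gene with the highest ratio in fat outside the 10. Lamb3 (2.24) and Lama3 (1.36), chains of an epithelial laminin, were 2 of 11 at least 2-fold higher there, while Lama1 was at -0.89 and the median was -0.03. Markers of epithelium were higher in the same pool, with 5 of 6 past 2-fold, among them Cldn7 (2.89), Epcam (2.80), Krt8 (2.63) and Cdh1 (2.17), and a summed level of 49740, against 15226 in the normal-diet pool. Their part in the laminin ratios was not tested. In liver none of the 11 laminins passed 2-fold (median 0.07), with Lamb3 at 0.98, Lama4 at 0.19, Lamc3 at 0.15 and Lamb1 at 0.14.

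Receptors for these proteins stayed within 2-fold. Of 24 integrins, syndecans and other matrix receptors, 21 were measured in each tissue. Their median was 0.10 in fat, with Sdc1 (0.75), Sdc4 (-0.74), Itga6 (0.55) and Itgb7 (0.47) farthest from 0. In liver it was 0.03, with Itga6 (-0.34), Ddr1 (0.22), Itgb5 (0.22) and Itga5 (-0.22).

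The TGF-beta list of 15 ligands, receptors, SMADs and targets was measured in full in both tissues. In fat 1 was at least 2-fold higher, Smad7 (1.01), the inhibitory SMAD that the pathway induces, followed by Tgfbr3 (-0.67), Pmepa1 (0.67) and Tgfb3 (-0.45), with a median of 0.01. In liver Smad6 was at 0.66, Smad7 at 0.32 and Pmepa1 at 0.30, with a median of 0.00 for the list. Over all 7 lists of other matrix genes, 5 of 107 measured genes were higher and 3 lower in fat, with a median of 0.04. In liver 97 were measured, with 1 at least 2-fold higher, 0 lower and a median of 0.03. The 1 higher gene is in the TGF-beta list and is not reported here by name. No gene of these lists that was above background in 1 channel only had a bound of 2-fold.

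**Figure D3:**
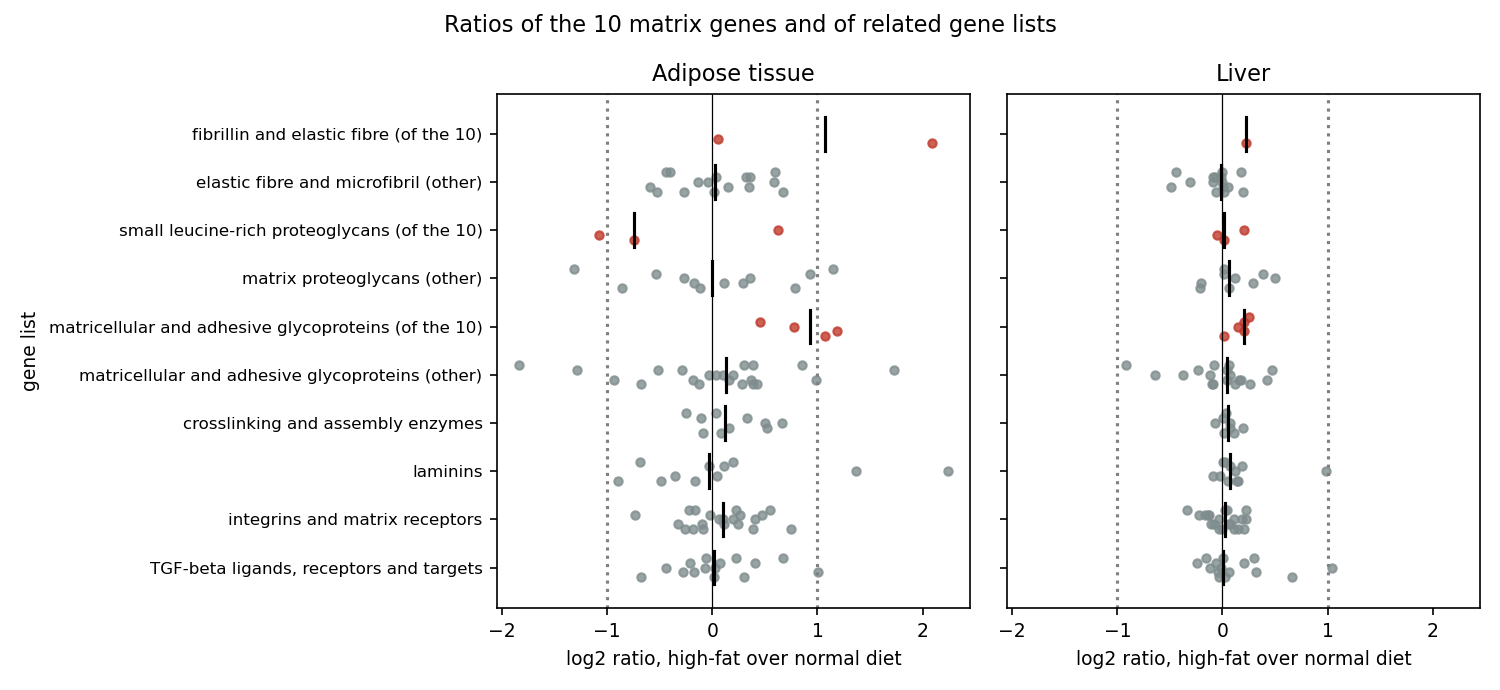
Log2 ratio of the high-fat over the normal-diet pool for each measured gene of the 10 (red) and of the other matrix lists (grey), in adipose tissue (left) and liver (right). Black bars are medians and dotted lines mark 2-fold. In fat the 4 measured matricellular members of the 10 have a median of 0.93 and the 22 other measured genes of that kind 0.13. The 10 were chosen with earlier results of these data known, so this gap is no test.

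Markers of the cells that could supply this RNA were measured on the same array. Of 12 fibroblast and stellate cell markers, 10 were measured in fat with a median of 0.13 and summed levels of 27782 in the high-fat pool and 21191 in the normal-diet pool. Dpp4 (2.23), also a brush-border enzyme of the gut, was higher and Des (-1.17) lower, while Fap was at 0.84 and Thy1 at 0.63. Pdgfra (-0.30) and Pdgfrb (0.20) lay closer to 0. Smooth muscle and pericyte markers, of cells that also make biglycan, had a median of -0.58. Of 8 measured, 3 were at least 2-fold lower, Cnn1 (-2.32), Tagln (-1.41) and Myh11 (-1.13), Rgs5 was at 0.99, and the summed levels were 72195 in the high-fat pool and 177769 in the normal-diet pool. Their part in the Bgn ratio was not tested.

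Adipocyte markers had a median of 0.26 in fat, with Lep (1.66) higher, Cfd (-1.70) lower, Fabp4 at 0.73 and Pparg at -0.57. Endothelial markers had a median of 0.25, with none of 8 past 2-fold. They were led by Cldn5 (0.59), Tek (0.51), Pecam1 (0.35) and Emcn (0.28), and summed to 43050 in the high-fat pool and 34429 in the normal-diet pool. Of 6 mesothelial markers, 5 had ratios below 0, and the median was -0.80. Krt19 (2.07), shared with other epithelia, was higher and Lrrn4 (-1.43) and Wt1 (-1.24) lower, with Upk3b at -0.96. The summed levels of 22629 and 15548 include Krt19, the brightest of the list in the high-fat pool, at log2 levels of 13.95 and 11.88.

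Markers of other organs also differed between the fat pools. The 12 small intestine markers had a median of 5.01, with Fabp2 (6.42), Reg3b (6.36), Sis (5.76) and Clca1 (5.46) highest. The 14 hepatocyte markers had a median of -3.84, led by Ambp (-5.59), Serpinc1 (-4.93), Apoh (-4.77) and Hpx (-4.66). Of 10 exocrine pancreas markers 9 were at least 2-fold lower (median -2.06), led by Try4 (-2.98), Sycn (-2.79), Pnlip (-2.64) and Prss2 (-2.18), with summed levels of 4275 and 18708. All 5 measured male reproductive tract markers were lower (median -3.19), led by Tnp2 (-4.27), Prm2 (-3.76), Crisp1 (-3.19) and Prm1 (-2.98), with summed levels of 8371 and 84928. Others of that list had bounds only, with Lcn5 at least 2.07-fold and Odf1 at least 1.83-fold lower, and Adam7 at least 1.27-fold higher. Defb20 was above background in neither channel. Of 6 measured skeletal muscle markers, 5 were at least 2-fold lower (median -1.67). They were led by Tnnc2 (-3.29), Myh4 (-3.19), Ckm (-1.85) and Tnni2 (-1.49), and the list had summed levels of 5548 and 19491. Gut wall, epididymis and muscle have connective tissue of their own, and the part of these organs in the fat ratios of the 10 genes was not tested.

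**Figure D4:**
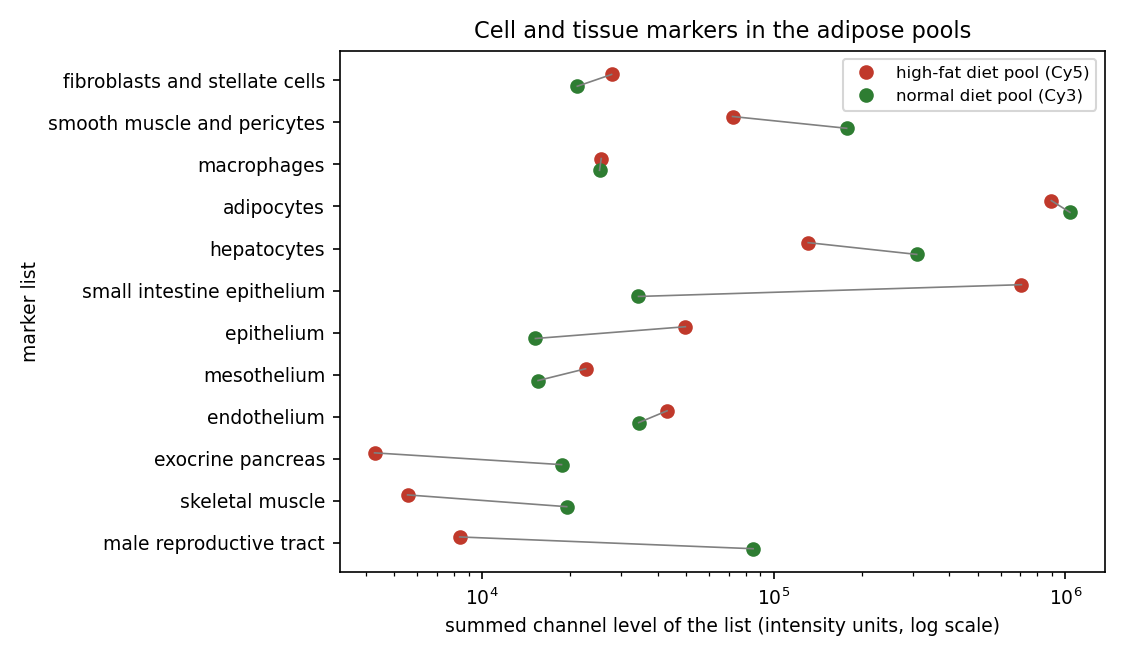
Summed channel level of each marker list on the adipose array (log axis) in the high-fat (red) and normal-diet (green) pools. Small intestine markers sum to 706554 and 34352, and fibroblast markers to 27782 and 21191.

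The same lists were read on the liver array. Fibroblast and stellate cell markers had a median of 0.04 over 11 measured, none past 2-fold, with Des at -0.50, Ngfr at 0.36, Lrat at 0.25 and Pdgfrb at 0.23, and summed to 5396 in the high-fat pool and 5264 in the normal-diet pool. Smooth muscle and pericyte markers had a median of 0.24 over 5, with Cnn1 at 0.67, Acta2 at 0.38, Tagln at 0.24 and Rgs5 at 0.21. Macrophage markers had a median of 0.12 over 12, with Trem2 at 0.78, Cd9 at -0.77, C1qc at 0.24 and C1qb at 0.22. Hepatocyte markers had a median of 0.38, with Cyp2e1 and Apoa2 past 2-fold at 1.14 each. Both are among the brightest genes, with log2 levels of 17.31 and 16.17 for Cyp2e1 and 17.86 and 16.71 for Apoa2. All liver genes at a brightness of 16 to 17 had a median of 0.26, and those at 17 to 18 of 0.61. Of 7 skeletal muscle markers 6 were at least 2-fold lower (median -1.47). The medians were 0.02 for adipocyte markers, with Slc2a4 lower (-1.07), 0.09 for endothelium, 0.02 for epithelium, 0.04 for mesothelium, -0.17 for exocrine pancreas and -0.21 for the male reproductive tract. Of 12 small intestine markers 3 were measured, with Reg3b past 2-fold (1.35). Their part in the liver ratios was not tested.

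The 10 genes were mostly brighter on the adipose array, in channel levels that assume a like distribution of brightness on both arrays. In the normal-diet channel, 6 of the 8 genes measured on both arrays were at least 2-fold brighter on the adipose array and none on the liver array, where 18.2% and 16.2% of the 12689 genes measured on both were. The difference in log2 level, adipose minus liver, was 4.30 for Sparc, 3.41 for Fbn1, 3.40 for Postn, 3.18 for Dcn, 2.82 for Lum and 1.26 for Bgn. Tgfbi was at 0.84. Fn1 was brighter on the liver array, at -0.72. Spp1 was at least 5.47-fold brighter on the liver array, and Eln at least 2.24-fold brighter on the adipose array, each against a channel where it was not well above background. Array and tissue cannot be told apart.

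The ratios of several members lay apart between the arrays. The ratio in fat minus the ratio in liver was 1.86 for Fbn1, 1.06 for Sparc, 0.98 for Tgfbi and 0.63 for Postn. It was -1.02 for Bgn and -0.76 for Dcn. Of the genes measured on both arrays, 1.17% had a larger positive difference than Fbn1, and 95.8% had a difference above that of Bgn. Lum (0.42) and Fn1 (0.20) differed less. With 1 array per tissue these differences have no test.

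**Figure D5:**
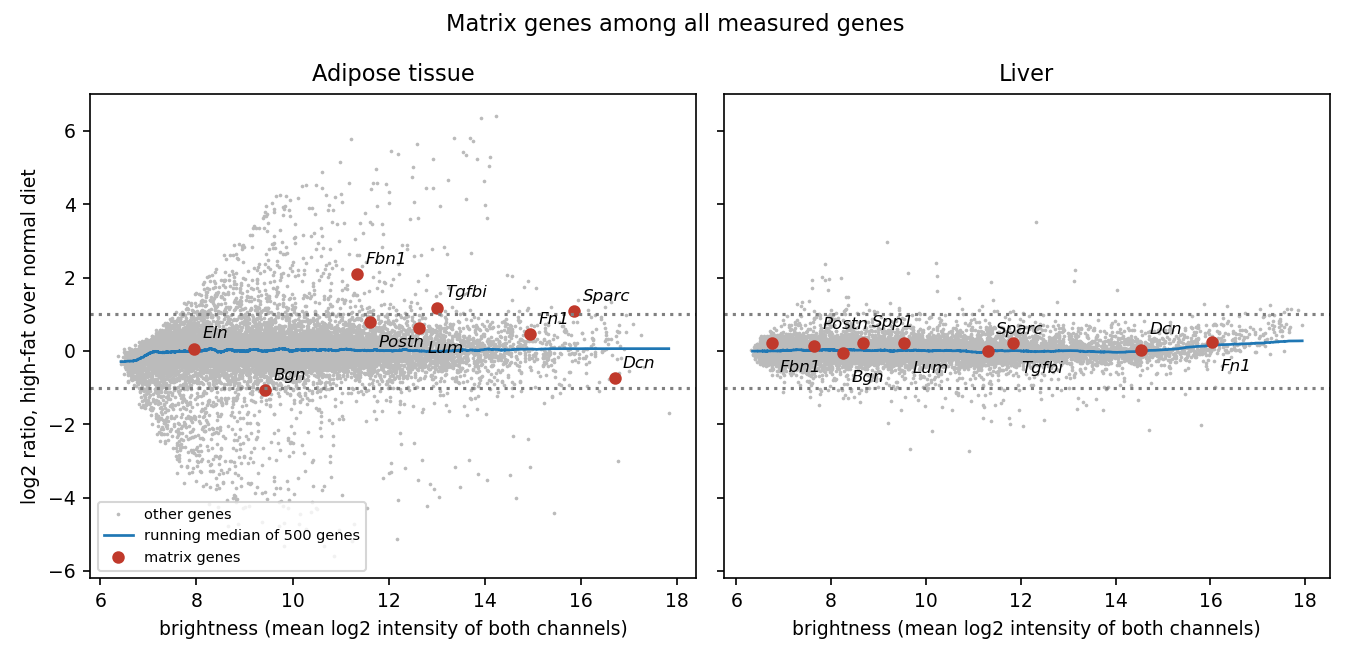
Log2 ratio of the high-fat over the normal-diet pool against brightness for every measured gene, in adipose tissue (left) and liver (right), with the 10 matrix genes in red, a running median of 500 genes in blue and dotted lines at 2-fold. In fat Fbn1, Tgfbi and Sparc lie above 2-fold and Bgn below, and in liver the 9 measured members lie near the running median.

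The ratios in fat rest on the removal of a large difference between the channels. The red channel was brighter by a median of 5.35-fold near Fbn1 and 6.46-fold near Dcn, so each ratio is relative to genes of like brightness. With each array centred on its median instead of normalized by brightness, 6 members were at least 2-fold higher in fat and 0 lower. Among all genes there 4208 were then higher and 616 lower, against 605 and 735. That setting moved the median of all genes to 0.69, and relative to it 5 members were at least 2-fold higher, among them Fbn1 (2.39), Sparc (1.63), Tgfbi (1.58) and Lum (1.00), and 0 lower, with Bgn at -0.94 and Dcn at -0.15. Before the shift is taken off, Dcn was at 0.54, above 0, and Bgn at -0.25. The Bgn call thus ended under that setting, while those of Fbn1, Tgfbi and Sparc did not.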

How the data were processed

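RNA pools of 2 diets were measured on 1 two-colour Agilent array per tissue. The authors deposited scanner files that give the median pixel intensity of each spot and of its local background per channel, without normalization. The deposited log10 ratio of red over green and its error are the scanner software's, after its own background subtraction and dye normalization. Agilent Feature Extraction 11.5.1.1 was used per the file headers, while the submitters' processing notes name 8.5.1.1. The files name build mm9.

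From these, intensities were corrected for background by normexp with an offset of 50 (limma 3.58.1, R 4.3.3), after local backgrounds with an outlier mark had been set to the median of the array and channel, and normalized by loess within each array. Control spots had weight 0. Channel levels were given the same distribution of mean brightness on both arrays (Aquantile). A probe was measured when well above background in both channels, without an outlier mark (213 spots in fat and 184 in liver were left out, and 0 were saturated). Probes of a gene were averaged on the log2 scale, and 27507 probes in fat and 27503 in liver matched 1 RefSeq gene. The error quoted is the software's, converted to log2 (median 0.21 in each tissue). Repeat spots of a probe had a median SD of 0.05 in both tissues.

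The median signal was 274 (high fat) and 97 (normal diet) on the adipose array, over backgrounds of 52.5 and 28, and 127 and 93 on the liver array, over 48 and 28. The number of arrays limits the precision. The 10 genes and all lists were chosen with earlier results of these data known. Named genes are the 10, and of each list the 4 with the largest ratio in either direction per tissue and those past 2-fold. Values of 2 list genes that the rule would name are not reported here. Some marker lists in liver are given by their medians only, and the macrophage list in fat by its median and range. A gene above background in 1 channel only is given as a bound. Alternatives were 8 settings planned and 1 added after seeing the data.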

Additional observations from a re-analysis of the deposited data

Results flagged for a closer look

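Dcn had ratios on opposite sides of 0 in the 2 tissues, -0.75 in adipose tissue and 0.01 in liver, a difference of -0.76. The liver ratio lies far within its software error of 0.20, and with 1 array per tissue the difference was not tested.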

How the results depend on the processing

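Each ratio was recomputed under 9 other settings. Leaving median centring aside, all 9 fat ratios kept their direction and their side of 2-fold in the other 8 settings, with Fbn1 between 2.08 and 2.15, Tgfbi between 1.15 and 1.19, Sparc between 1.01 and 1.43 and Bgn between -1.23 and -1.06. The 9 liver ratios kept their side of 2-fold there, but Dcn (-0.04 to 0.03) and Sparc (-0.06 to 0.04) had both signs. The median of the 9 liver ratios lay between 0.01 and 0.20 in those 8 settings. Of those 8, the settings that change only the filter on dim probes could not move the ratio of any measured member. Taking the brightest probe per gene could move only Sparc, the 1 member with more than 1 probe. Fbn1 in liver was at 0.61 by the software's log ratio and at 0.01 with local backgrounds as deposited. With median centring 1 member was at least 2-fold higher in liver (Fn1, 1.02) and 0 lower, with a median of 0.53, and in fat 6 were higher and 0 lower, with a median of 1.70. Median centring leaves the channel difference that changes with brightness in the ratios. Levels scaled to each array's median in place of Aquantile kept the direction of all 10 differences between tissues. Fn1 was then at -1.65 (against -0.72), Tgfbi at 0.22 (against 0.84) and the median of the 10 at 1.66 (against 2.04). Over all liver genes the counts at least 2-fold higher and lower were 67 and 79, against 445 and 28 with median centring. They were 138 and 157 by the software's ratio and 20 and 35 on the deposited local backgrounds. A looser filter on dim probes gave 116 and 79, and 103 were higher with no such filter. In fat 1230 were lower with the software's log ratio, against 735. Where a gene is near background, as Eln, Spp1 and liver Fbn1 are, signal limits what can be seen. No paired analysis was possible because each tissue has 1 array.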
